A study of Mus musculus with 22 samples.

Results

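A group of 10 genes of activated microglia, called members here, was followed through the 4 groups of mRNA libraries: Lilr4b, Cd68, Trem2, Tyrobp, Cst7, Clec7a, Axl, Apoe, Lpl and Cd14. They were taken by symbol from the table of raw counts, which holds 53379 genes, and each of the 10 had 1 row there. All 10 passed the filter on low counts and were among the 40714 genes tested. The animals were adult male C57/BL6N mice. Status epilepticus was induced by kainate placed above the right hippocampus, and sham mice received saline in the same way. Tissue was taken 24 h later from the left, contralateral hippocampus (CLH), as the sample names and the study's design state, although 1 protocol text of the labels names the right side. Each treatment had 8 mice, whose hippocampi were pooled into 3 samples, and only kainate mice with convulsive seizures were included. Nuclei of each pool were sorted on NeuN, a neuronal nuclear protein, into a NeuN+ fraction, called neurons here, and a NeuN- fraction, called glia. There were 3 libraries of kainate neurons, 3 of sham neurons and 3 of kainate glia. Sham glia had 2 libraries, replicates 1 and 3, because the preparation of 1 sample failed. The NeuN- fraction is every nucleus without NeuN, so it holds astrocytes, oligodendrocytes and their precursors, vascular cells and microglia together, and no gate selected microglia.

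Microglia are the resident macrophages of the brain. At rest they express receptors for nucleotides and chemokines such as P2ry12 and Cx3cr1, and under damage, amyloid or demyelination they lower these and raise a set of genes for lipid uptake, phagocytosis and lysosomal degradation. TREM2, a surface receptor for lipids and lipoproteins, signals through the adaptor DAP12, which Tyrobp encodes, and much of this second set depends on that pair. The members cover sensing receptors, a receptor for dying cells, lysosomal proteins and lipoprotein genes, and they are described below in that order.

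Total counts ran from 12.1 to 45.4 (in units of 1000000 counts) per library, and levels are reads of a gene per 1000000 counts of its library (CPM), with TMM library factors. The replicate 1 libraries stood apart from the others within each group, and 2 glia libraries, kainate replicate 2 and sham replicate 1, were made from 0.05 ng of RNA in place of 1 ng. Summed CPM of 8 oligodendrocyte markers in glia was 27962, 11930 and 5021 in the kainate libraries and 39852 and 8879 in the sham libraries. These sums differed between replicate numbers, and kainate and sham overlapped. None of the 8 was called without the block, and 4 were called lower with it. A gene was called at a false discovery rate (FDR, Benjamini-Hochberg over all genes tested) below 0.25, the threshold the study used, with edgeR's quasi-likelihood test. The same test was also run with the replicate number as a block, which compares each kainate library with the sham library of its number. In glia that comparison rests on numbers 1 and 3, and the fit with the block leaves 3 residual degrees of freedom, against 7 without it.

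The 2 sorted fractions were compared first, over both treatments. This sets neuronal from non-neuronal genes and cannot tell microglia from other glia. Of the 10 members, 8 were lower in NeuN+ than in NeuN- nuclei, while 20.4% of all genes tested were lower and 16.8% higher. The difference was -5.03 ± 0.46 on the log2 scale (SE, n = 6 NeuN+ against 5 NeuN- libraries) for Trem2, with an edgeR FDR of 3.30e-05. It was -4.75 for Apoe, -4.74 for Tyrobp, -4.51 for Cd14, -3.55 for Clec7a, -2.94 for Axl, -2.89 for Lilr4b and -2.46 for Cd68. The whole list of 18 homeostatic microglia genes was lower in NeuN+ nuclei as well, with a median of -4.83 against -0.47 over all genes. So were all 8 astrocyte, 8 oligodendrocyte and 6 oligodendrocyte precursor markers, with medians of -3.36, -5.71 and -5.08. The pan-neuronal nuclear gene Rbfox3, which encodes NeuN, was higher there by 2.72 on the log2 scale.

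Lpl and Cst7 did not follow the other members. Lpl, the lipase that frees fatty acids from lipoproteins and that hippocampal neurons also express, stood at 53.8, 30.3 and 30.8 CPM in sham neurons and at 15.5 and 21.2 CPM in sham glia, but at 32.4, 19.3 and 25.6 CPM in kainate neurons and at 29.4, 51.5 and 45.8 CPM in kainate glia. Averaged over both treatments, in which the order of the fractions mostly differed, its difference was 0.17 on the log2 scale (95% interval -0.41 to 0.76) and was not called (edgeR FDR 0.676). Cst7, the cysteine protease inhibitor cystatin F, lay between 1.14 and 2.92 CPM in all 11 libraries. Its difference of -0.61 was not called (edgeR FDR 0.319), but with the pool as a block it was -0.64 with an edgeR FDR of 0.175, where 34.8% of all genes were called lower.

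**Figure D1:**
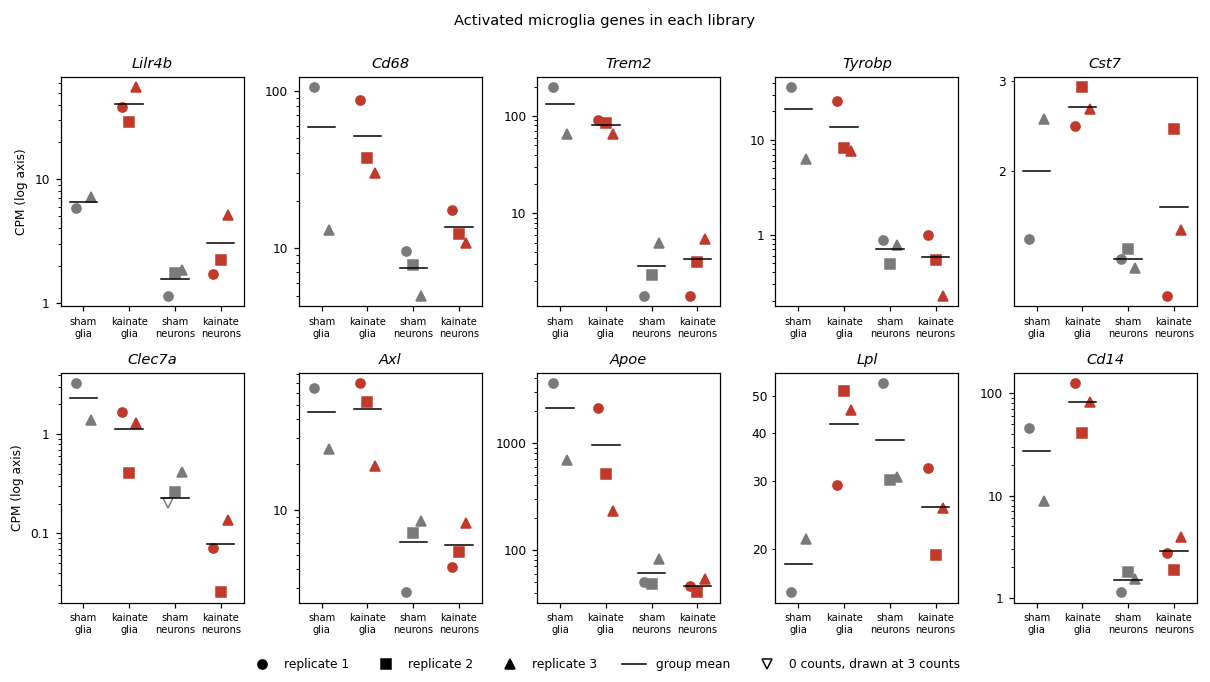
CPM (log axis, a separate scale for each gene) of the 10 members in sham and kainate glia (NeuN-) and neurons (NeuN+), 1 point per library with the shape giving the replicate number, and a line at each group mean; the open triangle is the 1 library with 0 counts, drawn at the level of 3 counts. Lilr4b in kainate glia lies at 28.8 to 55.2 CPM, above both sham libraries, while Apoe, Cd68 and Tyrobp are highest in the replicate 1 glia libraries of either treatment.

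Levels of different genes were compared as CPM per kilobase of exon. In sham glia Apoe was highest at 998 ± 959 CPM per kb (SD, n = 2), followed by Cd68 at 47.0, Tyrobp at 31.7, Trem2 at 26.6 and Cd14 at 15.9. Axl was at 8.90, Cst7 at 2.03, Lpl at 1.75, Lilr4b at 1.20 and Clec7a at 0.881. The SD of Cd68, Tyrobp, Trem2 and Cd14 ran from 15.2 to 51.9, so these 4 neighbours were not separated. In kainate glia Apoe was again highest, at 447 ± 478 CPM per kb (SD, n = 3), and Cd14 stood next at 47.5 ± 24.1, beside Cd68 at 41.0 ± 25.0. Lilr4b stood at 7.50 ± 2.46 there, above Lpl at 4.03 ± 1.09 and Cst7 at 2.71 ± 0.24. In sham neurons Apoe was at 28.4, Cd68 at 5.92 and Lpl at 3.66 CPM per kb, and the other 7 lay between 0.0856 and 1.37.

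The question put to the glia was which genes of microglial activation differ in the CLH, a hippocampus that seizures reached but kainate was not placed above. Of the 10 members, 1 was called higher in kainate than in sham glia, Lilr4b, and none lower, against 0.0933% and 0.00737% of all genes tested. At an unadjusted p below 0.05 there were 3 higher, Lilr4b, Lpl and Cd14, against 1.35% of all genes, and none lower. In 2 of the 10, Lilr4b and Lpl, every kainate library lay above both sham libraries, which held for 4.7% of all genes. With the replicate block 3 members were called higher (Lilr4b, Lpl and Cd14) and 1 lower (Apoe), against 2.93% and 2.86% of all genes. Over the list 5 members had a positive and 5 a negative fold change, with a median of -0.06 on the log2 scale beside 0.02 over all genes. These are amounts in sorted bulk nuclei, in which fewer nuclei of a type and less RNA in each cannot be told apart. The paper, which analysed the fractions separately, lists Lilr4b, its neighbour Lilrb4a and Lpl as changed in glia of the ipsilateral (right) hippocampus only. With a separate fit per fraction, no member was called in glia here, nor any other of the 39857 genes tested.

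**Figure D2:**
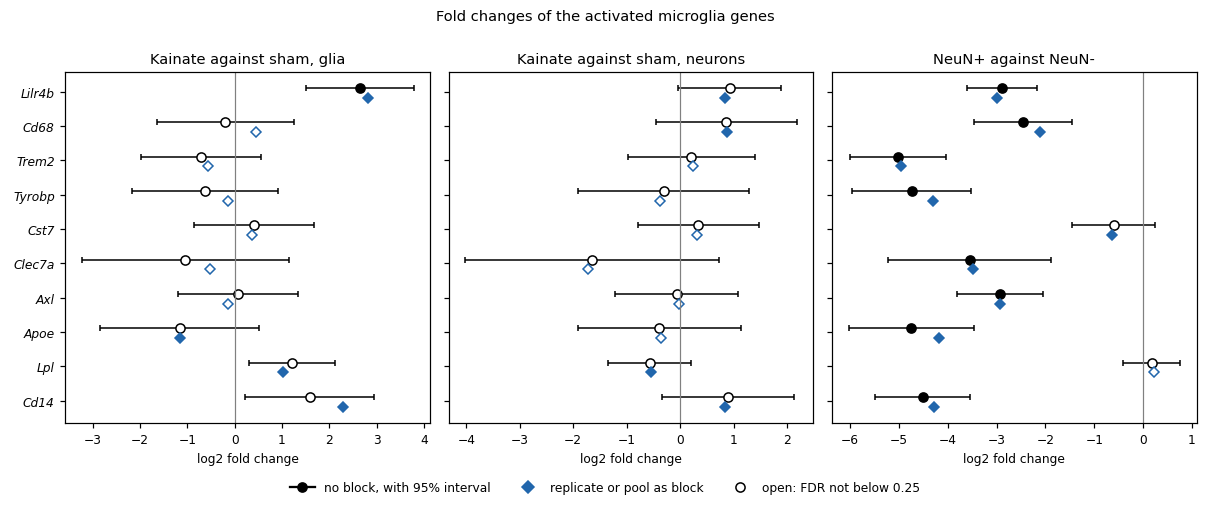
Log2 fold changes of the 10 members for kainate against sham glia, kainate against sham neurons, and NeuN+ against NeuN- libraries; circles with bars are the fit without a block and its 95% interval, diamonds the fit with the replicate number or pool as a block, and filled symbols have an FDR below 0.25. In glia only the circle of Lilr4b is filled, at 2.64, and 4 diamonds are filled, while in the comparison of the fractions 8 circles lie at or below -2.46.

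Lilr4b (ENSMUSG00000112023) is a receptor of the leukocyte immunoglobulin-like family on myeloid cells, the copy without the inhibitory motifs of its neighbour Lilrb4a (ENSMUSG00000112148). It lies at chr10:51480632-51486703 on the plus strand of GRCm38, and Lilrb4a follows at chr10:51490956-51496611 on the same strand. Both sequences are shown because reads of the copies could be taken for each other. The first 75 coding bases, from the transcripts of the GENCODE annotation of GRCm38, differ at 1 base, which is in capitals.
Lilr4b: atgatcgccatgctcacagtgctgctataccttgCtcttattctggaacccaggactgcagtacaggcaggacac
Lilrb4a: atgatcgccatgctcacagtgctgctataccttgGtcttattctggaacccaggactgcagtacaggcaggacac
Over the whole coding sequences, of 909 and 1005 bases, the copies were 96.0% identical at 907 aligned bases, with 36 mismatches and 100 gap bases. Of the 1762 stretches of 75 bases in the Lilr4b transcript, 280 (15.9%) also occurred in that of Lilrb4a. A read of that length from those stretches has no unique place and would not have been counted, since only uniquely placed reads were. The other 84.1% of stretches set the copies apart. The paper also describes longer, paired reads, for which these shares do not hold. A further 122 exon bases of Lilr4b are shared with a readthrough gene on the same strand, which leaves 97.8% of its exon bases its own, while Lilrb4a keeps 64.1%.

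Lilr4b stood at 38.3, 28.8 and 55.2 CPM in kainate glia (610, 849 and 1966 counts) and at 5.88 and 7.19 CPM in sham glia (92 and 145 counts). All 3 kainate libraries were above both sham libraries. The log2 fold change was 2.64 ± 0.53 (SE, 95% interval 1.50 to 3.78), a 6.23-fold difference, with an edgeR FDR of 0.228. Kainate exceeded sham 6.51-fold in the libraries numbered 1 and 7.68-fold in those numbered 3. With the replicate block the change was 2.82 with an edgeR FDR of 9.03e-09. The call without the block was narrow. The FDR rose to 0.428 without kainate neuron replicate 2, to 0.408 and 0.384 without sham neuron replicates 2 and 3, and to 0.515, 0.441 and 0.880 without kainate glia replicates 1, 2 and 3. It was 0.980 without sham glia replicate 1, which leaves 1 sham glia library, and 0.146 to 0.240 without each of the other 4. The fold change itself stayed between 2.17 and 2.84 in these 11 fits of Lilr4b.

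Lilrb4a, the inhibitory copy, moved in the same direction in glia. It stood at 55.4, 57.0 and 69.9 CPM in kainate and at 10.7 and 4.71 CPM in sham glia, with no overlap. Its log2 fold change was 2.98 ± 0.68, with an unadjusted p of 0.000669 and an edgeR FDR of 0.438, so it was not called without the block. With the block the change was 3.12 and the edgeR FDR 2.78e-08. The other 3 paired receptors of the list, Pirb, Lilra5 and Lilra6, were not called in glia with or without the block.

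Trem2 (ENSMUSG00000023992, chr17:48346401-48354147, plus strand) stood at 90.7, 84.8 and 65.0 CPM in kainate and at 198 and 65.4 CPM in sham glia. The groups overlapped, the single high value being sham replicate 1. The log2 fold change was -0.72 (95% interval -1.99 to 0.56, edgeR FDR 1.00). Without sham glia replicate 1 it was 0.32, so the sign for Trem2 rested on that library.

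Tyrobp (ENSMUSG00000030579, chr7:30413760-30417585, plus strand), the adaptor of TREM2, stood at 25.5, 8.11 and 7.56 CPM in kainate and at 36.0 and 6.35 CPM in sham glia. Both replicate 1 libraries were high and the groups overlapped. Its log2 fold change was -0.63 (95% interval -2.18 to 0.92), and it turned to 1.14 without sham glia replicate 1. Clec7a (ENSMUSG00000079293, chr6:129461591-129472779, minus strand, annotated as a polymorphic pseudogene), the gene of the fungal glucan receptor Dectin-1, was the lowest member in glia by mean CPM per kb. It stood at 1.69, 0.407 and 1.29 CPM in kainate and 3.26 and 1.39 CPM in sham libraries. With a log2 fold change of -1.04 (95% interval -3.23 to 1.15), Clec7a was not called. It had 12 to 46 counts in kainate and 28 to 51 counts in sham glia.

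Of 9 genes around TREM2, DAP12 and Dectin-1, 5 had a positive and 4 a negative fold change in glia and none was called with or without the block. Their median log2 fold change was 0.01. Card9, the adaptor gene downstream of Dectin-1, stood at 17.0 CPM or more in the 3 kainate libraries and at 10.9 and 13.4 CPM in sham glia, so its groups did not overlap, and changed by 0.53 ± 0.43 (edgeR FDR 1.00). Malt1, whose protein acts with that adaptor, changed by -0.41, and its groups overlapped. The kinase gene Syk, downstream of both receptors, changed by -0.11, the second adaptor gene Hcst by -0.28, the phospholipase gene Plcg2 by 0.01 and Spi1, which encodes the myeloid transcription factor PU.1, by 0.16.

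Cd14 (ENSMUSG00000051439), the co-receptor that hands bacterial lipopolysaccharide to Toll-like receptor 4, stood at 124, 40.8 and 81.9 CPM in kainate glia and at 46.1 and 8.88 CPM in sham glia. Within each number kainate was higher, 2.70-fold in replicate 1 and 9.23-fold in replicate 3, but kainate replicate 2 lay below sham replicate 1, so the groups overlapped. The log2 fold change was 1.58 ± 0.64 (95% interval 0.21 to 2.95) with an unadjusted p of 0.0267, and Cd14 was not called (edgeR FDR 1.00). With the replicate block it was called higher, at 2.29 with an edgeR FDR of 6.67e-07. Leaving out sham glia replicate 3 took the unblocked Cd14 value to 0.83 and leaving out sham glia replicate 1 took it to 3.24.

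Among 9 receptors and adaptors that work with CD14, none was called without the block and 1 was called higher with it. That gene was Tlr2, a receptor for bacterial lipoproteins, at 54.5, 29.1 and 26.4 CPM in kainate and 22.6 and 6.40 CPM in sham glia. Its log2 fold change was 1.34 ± 0.67 (edgeR FDR 1.00), and 1.65 with the block (edgeR FDR 0.0012). Tlr4, the signalling partner of CD14, changed by -0.60 ± 0.60 on the log2 scale and was called in neither fit.

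Axl (ENSMUSG00000002602, chr7:25757273-25788705, minus strand) encodes a receptor of the TAM family, which binds dying cells through the bridging proteins GAS6 and protein S. It stood at 69.3, 52.2 and 19.6 CPM in kainate and at 64.1 and 25.5 CPM in sham glia. The replicate numbers separated the values and the treatments did not, with a log2 fold change of 0.07 (95% interval -1.19 to 1.33). Of its 4 relatives and ligands, none was called in glia without the block. Gas6 changed by 0.14 in that fit and Mertk, the TAM receptor of resting microglia, by -0.79. With the block Pros1, the gene of protein S, was called higher in glia at 1.47 and Tyro3 and Mertk lower, at -1.20 and -0.61 (edgeR FDR 2.09e-05, 0.000168 and 0.188).

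Cd68 (ENSMUSG00000018774, chr11:69664213-69666153, minus strand), a glycoprotein of the lysosomal membrane in phagocytes, ranged more widely within the groups than between them. It stood at 87.6, 37.3 and 29.8 CPM in kainate and at 105 and 12.99 CPM in sham glia. Cd68 changed by -0.20 on the log2 scale (95% interval -1.64 to 1.25). The change was 0.45 with the block (edgeR FDR 0.690) and 2.02 without sham glia replicate 1 (edgeR FDR 0.980), called in neither. Cst7 (ENSMUSG00000068129, chr2:150570415-150578944, plus strand) stood at 2.45, 2.92 and 2.64 CPM in kainate and at 1.47 and 2.53 CPM in sham glia. For Cst7 the log2 fold change was 0.41 (95% interval -0.86 to 1.68). Of 6 lysosomal genes, cystatins and their target proteases none was called in glia without the block, with 1 higher and 2 lower under it.

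Apoe (ENSMUSG00000002985, chr7:19696109-19699188, minus strand), the lipoprotein of astrocytes at rest and a gene that activated microglia raise, stood at 2124, 512 and 229 CPM in kainate and at 3584 and 684 CPM in sham glia. Sham exceeded kainate 1.69-fold in replicate 1 and 2.98-fold in replicate 3, and replicate 1 was the highest library of each treatment. The log2 fold change was -1.16 ± 0.78 (edgeR FDR 1.00), and with the replicate block Apoe was called lower, at -1.17 with an edgeR FDR of 0.000460. Without sham glia replicate 1 the unblocked value turned to 0.51. Astrocyte markers moved beside it. The 8 of them summed to 3810, 1891 and 729 CPM in kainate and 5100 and 1373 CPM in sham glia, with none called without the block and 5 lower and 1 higher with it, and their part in the Apoe result was not tested.

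Lpl (ENSMUSG00000015568, chr8:68880491-68907448, plus strand) stood at 29.4, 51.5 and 45.8 CPM in kainate and at 15.5 and 21.2 CPM in sham glia. All 3 kainate libraries were above both sham libraries, by 1.90-fold in replicate 1 and 2.16-fold in replicate 3. The log2 fold change was 1.20 ± 0.42 (95% interval 0.29 to 2.11) with an unadjusted p of 0.0132, and Lpl was not called without the block (edgeR FDR 1.00). With the block it was called higher, at 1.02 with an edgeR FDR of 0.0113. Over the 11 fits that left out 1 library the unblocked Lpl value lay between 0.95 and 1.44.

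Of 13 other genes for lipoprotein uptake, lipolysis and cholesterol efflux, none was called in glia without the block, with a median of -0.30. With it Angptl4 was called higher, at 1.02 (edgeR FDR 0.0499), and Abcg1 lower, at -0.88 (edgeR FDR 0.0155). ANGPTL4 inhibits the lipase that Lpl encodes and ABCG1 exports cholesterol.

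The glia comparison was repeated without the libraries that stood apart, which in each case leaves 1 sham glia library, taken to vary like the other groups. With replicates 2 and 3 only, 3 members were called higher in glia and none lower, where 430 of 45056 genes were called higher and 58 lower (0.954% and 0.129%), against 38 and 3 of 40714 with all libraries. The 3 members were Lilr4b at 2.56 (edgeR FDR 0.000482), Cd14 at 2.80 (edgeR FDR 9.07e-05) and Cd68 at 1.38 (edgeR FDR 0.241). Lpl was at 1.21 (edgeR FDR 0.416) and Apoe at -0.87 (edgeR FDR 0.961) in that fit. Without both low-input libraries no member was called, and over all 44225 genes tested in that fit 1 was called higher (0.00226%) and 0 lower. In it Lilr4b was at 2.72, Cd14 at 3.56, Cd68 at 2.20, Lpl at 0.84 and Apoe at 0.81.

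The question put to the neurons was the same. Among the members none was called in either direction without the block, against 0.157% of all genes higher and 0.00737% lower, and none had an unadjusted p below 0.05, against 2.09% of all genes. The medians were 0.07 for the members and -0.01 for all genes. In 2 of the 10, Cd68 and Cd14, every kainate library was above every sham library, against 4.26% of all genes. With the replicate block 3 members were called higher and 1 lower, against 3.19% and 1.9% of all genes. The 3 were Lilr4b, Cd68 and Cd14 and the 1 was Lpl. With replicates 2 and 3 only and no block, none of the members was called in neurons, where 637 of 45056 genes were called higher and 389 lower (1.41% and 0.863%), against 64 and 3 of 40714 with all libraries.

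Cd68 had the lowest FDR of these. It stood at 17.4, 12.3 and 10.8 CPM in kainate and at 9.53, 7.84 and 4.96 CPM in sham neurons, higher in kainate by 1.83-fold, 1.57-fold and 2.18-fold in replicates 1, 2 and 3. In Cd68 the log2 fold change was 0.86 ± 0.62 (edgeR FDR 1.00), and 0.88 with the block (edgeR FDR 0.0176). Cd14 stood at 2.77, 1.86 and 3.92 CPM in kainate and at 1.14, 1.81 and 1.55 CPM in sham neurons. Its change was 0.90 ± 0.57, and 0.83 with the block (edgeR FDR 0.169), although the libraries numbered 2 differed only 1.03-fold.

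Lilr4b stood at 1.71, 2.24 and 5.13 CPM in kainate and at 1.14, 1.75 and 1.84 CPM in sham neurons, on 17 to 114 counts. Its log2 fold change was 0.93 ± 0.45 (95% interval -0.03 to 1.89), and 0.84 with the block (edgeR FDR 0.148). Without kainate neuron replicate 3, the highest library, the unblocked Lilr4b value was 0.32. Lpl stood at 32.4, 19.3 and 25.6 CPM in kainate and at 53.8, 30.3 and 30.8 CPM in sham neurons, lower within each number. Its change was -0.57 ± 0.36, and -0.55 with the block (edgeR FDR 0.204).

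Microglial RNA was also present in the NeuN+ libraries. The 18 homeostatic microglia genes summed to 111, 110 and 131 CPM in kainate and to 102, 83.6 and 97.7 CPM in sham neurons, and none of the 18 was at 0 counts in any library. Of the 18, 12 had a positive fold change, none was called without the block, and 4 were called higher and 1 lower with it. Csf1r, the receptor for the growth factor that microglia need, stood at 16.6, 24.0 and 30.2 CPM in kainate and at 7.99, 12.1 and 12.02 CPM in sham neurons (log2 fold change 1.14 ± 0.51, unadjusted p = 0.0429, edgeR FDR 1.00). The 8 astrocyte markers summed to 293, 398 and 476 CPM in kainate and to 290, 217 and 298 CPM in sham neurons. None of the 8 was called without the block, 4 were called higher and 2 lower with it, and in 3 every kainate library was above every sham library. Gfap, the intermediate filament gene of astrocytes, was 1.66-fold, 3.95-fold and 5.92-fold higher in kainate in replicates 1, 2 and 3 (log2 fold change 1.90 ± 0.53, edgeR FDR 0.617, and 3.17e-08 with the block). Of 6 other genes of lysosomes and cystatins, none was called without the block and 3 were called higher with it, Lamp2, Cst3 and Lgmn, each with groups that overlapped. The part of these lists in the results for Cd68, Cd14 and Lilr4b in neurons was not tested.

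The remaining members showed no called difference in neurons in either fit. Trem2 lay at 1.42 to 5.49 CPM in kainate and 1.41 to 4.93 CPM in sham libraries, Axl at 4.13 to 8.20 and 2.82 to 8.41 CPM, and Cst7 at 1.14 to 2.42 and 1.29 to 1.41 CPM. Apoe lay at 40.3 to 53.0 CPM in kainate and 48.3 to 83.1 CPM in sham neurons, with a log2 fold change of -0.39 (95% interval -1.92 to 1.14). Tyrobp was under 1 CPM in all 6 libraries. Clec7a had 1, 1 and 3 counts in kainate and 0, 9 and 13 counts in sham neurons, where 0 counts in sham replicate 1 allow up to 3 counts, or 0.201 CPM.

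Genes of the same pathways that were called in neurons without the block were Pros1, Angptl4 and Plcg2. Pros1 stood at 21.2, 22.7 and 23.7 CPM in kainate and 4.16, 2.96 and 2.67 CPM in sham neurons (log2 fold change 2.79 ± 0.54, edgeR FDR 0.153). Angptl4 stood at 7.18, 10.3 and 16.2 CPM in kainate and 1.81, 2.01 and 2.19 CPM in sham neurons (2.48 ± 0.48, edgeR FDR 0.155). Plcg2 was lower, at 3.49, 4.38 and 3.92 CPM in kainate and 10.5, 10.5 and 13.6 CPM in sham neurons (-1.55 ± 0.32, edgeR FDR 0.204). The first 2 belong to a ligand of the AXL family and to an inhibitor of lipoprotein lipase. No member itself was called there.

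Whether the kainate effect differed between neurons and glia was tested as the difference of the 2 fold changes. Without the block no member was called in either direction, as no gene at all was called lower in neurons (0%). At an unadjusted p below 0.05 there were 2, against 0.462% of all genes. These were Lpl at -1.78 ± 0.56, with an unadjusted edgeR p of 0.00666, and Lilr4b at -1.71 ± 0.67, with 0.0227, and both had an edgeR FDR of 1.00. With the replicate block 3 members were called, all with a lower value in neurons, against 0.702% of all genes. They were Lilr4b at -1.98 (edgeR FDR 0.00668), Lpl at -1.57 (0.00406) and Cd14 at -1.46 (0.104). For Cd14 the difference was -0.68 ± 0.84 without the block (edgeR FDR 1.00), and 0.074 in that fit without sham glia replicate 3. For Lpl the 2 fractions moved in opposite directions, 1.20 in glia and -0.57 in neurons.

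Other genes of disease-associated microglia were counted beside the members in glia. Of 22, none was called without the block, 4 had an unadjusted p below 0.05 and a higher value, and 8 were called higher and 1 lower with the block. Their median was 0.18 beside 0.02 over all genes. Spp1, the secreted protein osteopontin, stood at 75.5, 32.3 and 35.0 CPM in kainate and 16.7 and 5.35 CPM in sham glia, with a log2 fold change of 2.11 ± 0.62 (edgeR FDR 1.00) and 2.43 with the block (edgeR FDR 5.26e-07). The chemokine genes Ccl3 and Ccl4, named after their values were seen, changed by 2.25 and 2.38, with 2.71 and 2.79 under the block. Itgax, the integrin that marks this state in plaque microglia, changed by 0.09 and Gpnmb by 0.66, called in neither fit.

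Most homeostatic microglia genes had lower means in kainate glia, but most of the groups overlapped. Of 18, 15 had a negative fold change, with a median of -0.65. None was called without the block, 4 were lower at an unadjusted p below 0.05, and 6 were called lower and 1 higher with the block. P2ry12, the purinergic receptor that guides microglial processes, stood at 76.1, 36.1 and 20.9 CPM in kainate and at 437 and 66.2 CPM in sham glia. P2ry12 changed by -2.51 ± 0.65 on the log2 scale (edgeR FDR 0.788) and by -2.10 with the block (edgeR FDR 1.38e-08). Tmem119 changed by -1.08, Cx3cr1 by -0.73, Csf1r by -0.56 and Aif1 by -0.82, and of these 4 only Tmem119 was called with the block (edgeR FDR 0.0537). The gene called higher with the block was Fcrls, an Fc receptor-like gene of microglia. Fcrls stood at 179, 116 and 98.8 CPM in kainate and at 182 and 35.5 CPM in sham glia, and changed by 0.27 ± 0.57 without the block (edgeR FDR 1.00) and by 0.72 with it (edgeR FDR 0.171). The genes of complement C1q differed between the replicate numbers. Kainate was at 0.783-fold of sham for C1qa, 0.881-fold for C1qb and 0.774-fold for C1qc in replicate 1, and at 2.07-fold, 2.31-fold and 1.58-fold in replicate 3.

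**Figure D3:**
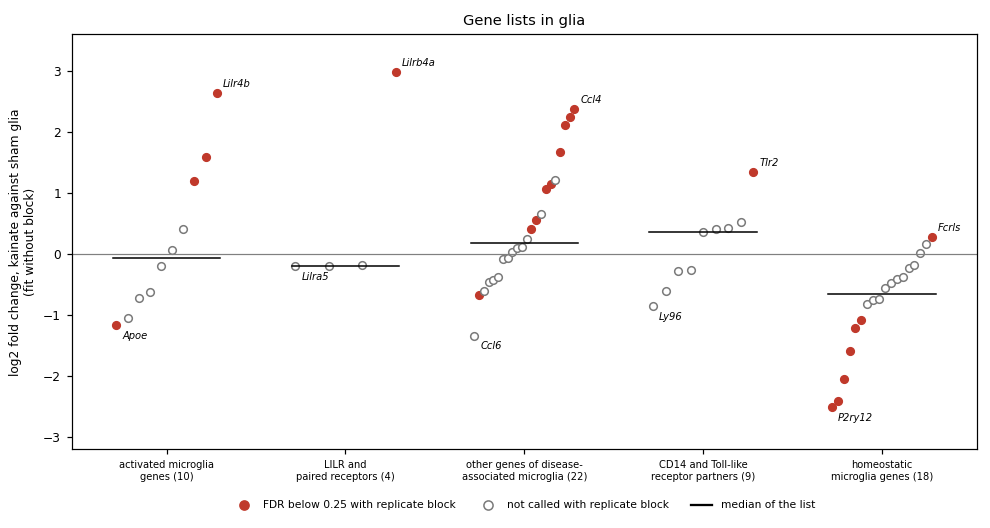
Log2 fold change in kainate against sham glia (fit without a block) of each gene in 5 lists, with filled points for genes called with the replicate block, a line at the median of each list, and the highest and lowest gene of each list named. The members run from -1.16 (Apoe) to 2.64 (Lilr4b), and the homeostatic genes reach down to -2.51 (P2ry12).

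The members were also set against the homeostatic genes, as a measure of microglial RNA in each library. The 18 homeostatic genes summed to 3312, 1860 and 1207 CPM in kainate and to 5730 and 1079 CPM in sham glia, and these sums overlapped. As a percentage of that sum, Lilr4b was 1.16, 1.55 and 4.58 in kainate and 0.103 and 0.666 in sham glia. Cd14 was 3.75, 2.19 and 6.79 in kainate and 0.804 and 0.823 in sham glia, and Cd68 was 2.65, 2.00 and 2.47 in kainate and 1.84 and 1.20 in sham glia. On this scale 3 members, Lilr4b, Cd14 and Cd68, had every kainate library above both sham libraries, against 4.42% of all genes. Tyrobp was 0.769, 0.436 and 0.626 in kainate and 0.628 and 0.588 in sham glia, so it kept close to the homeostatic sum, and Trem2, Cst7, Clec7a, Axl, Apoe and Lpl overlapped between the groups. These are descriptions with no test, and a lower sum raises every member on this scale alike.

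**Figure D4:**
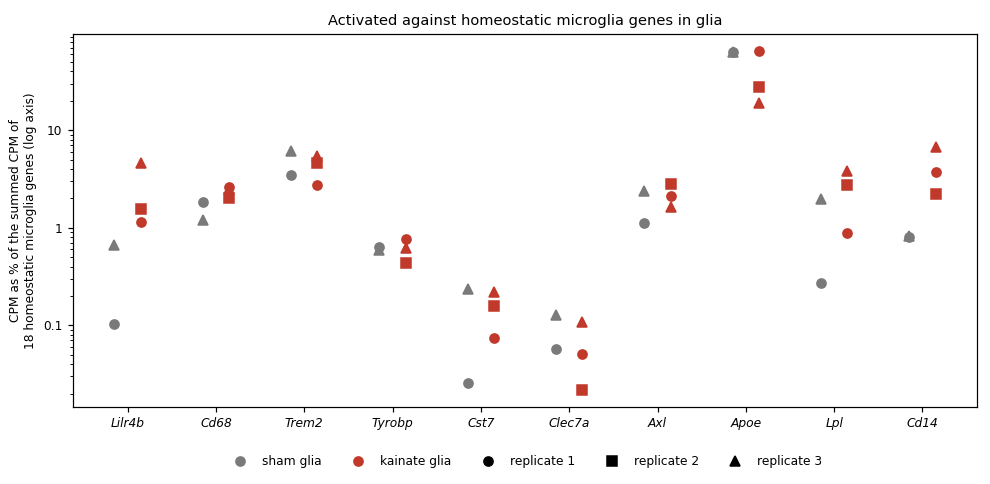
CPM of each member in the 5 glia libraries as a percentage of the summed CPM of 18 homeostatic microglia genes (log axis), with sham in grey, kainate in red and the shape giving the replicate number. The kainate points of Lilr4b, Cd68 and Cd14 lie above both sham points, and Tyrobp stays between 0.436 and 0.769 in all 5.

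Blood monocytes, neutrophils and border macrophages express several of the members, so their markers were counted in glia too. Of the 8 monocyte and neutrophil markers that could be tested, out of 9, none was called without the block, and 1 was called higher and 1 lower with it. The gene called higher was Fn1, which encodes fibronectin, at 39.9, 61.6 and 60.6 CPM in kainate and 14.1 and 25.7 CPM in sham glia. Its groups did not overlap, and it changed by 1.44 ± 0.46 without the block (edgeR FDR 1.00) and by 1.36 with it (edgeR FDR 0.000195). The gene called lower was Vcan, the proteoglycan versican, which oligodendrocyte precursors express as well, at 168, 94.4 and 63.3 CPM in kainate and 254 and 111 CPM in sham glia. The 6 oligodendrocyte precursor markers summed to 1966, 1015 and 405 CPM in kainate and to 3765 and 1160 CPM in sham glia. None of the 6 was called without the block, and 5 were called lower with it. The 8 monocyte and neutrophil markers summed to 219, 165 and 143 CPM in kainate and to 276 and 157 CPM in sham glia. Without Vcan the other 7 summed to 50.5, 70.4 and 79.3 CPM in kainate and to 22.0 and 46.5 CPM in sham glia, and without Vcan and Fn1 the other 6 summed to 10.5, 8.79 and 18.8 CPM in kainate and to 7.92 and 20.8 CPM in sham glia, which overlap. Fn1 is not particular to myeloid cells, and stood at 98.3, 135 and 71.9 CPM in kainate and 96.4, 56.6 and 45.7 CPM in sham neurons. Chil3 and Ly6c2, genes of neutrophils and monocytes, were 7.03-fold and 3.73-fold higher in kainate in replicate 1 and 1.12-fold and 1.20-fold in replicate 3, at 5.20 CPM or less in every glia library. The neutrophil gene S100a8 was at 0 counts in 2 of the 3 kainate and 1 of the 2 sham glia libraries. Ccr2, the chemokine receptor of incoming monocytes, stood at 5.64, 2.00 and 5.59 CPM in kainate and 6.52 and 8.83 CPM in sham glia. The 7 border macrophage markers summed to 23.4 to 28.3 CPM in kainate and 30.2 to 30.8 CPM in sham glia, none called in either fit, and Mrc1 changed by -0.12. The part of such cells in the Lilr4b and Cd14 values was not tested.

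Promoter sequences were looked at for letters that myeloid factors bind. A promoter window of 300 bases was at hand for 7 of the 10 members, and not for Tyrobp, Lpl and Cd14. The letters GAGGAA, the core bound by PU.1, occurred on either strand in a window of 5 of the 7 (Apoe, Axl, Cd68, Clec7a and Trem2) and in 28.3% of all 32851 windows. The AP-1 letters TGANTCA occurred in 3 of the 7 (Cd68, Cst7 and Trem2) and in 7.81% of all windows. Clec7a has 2 windows and Apoe 3, and a gene was counted if any window matched. The count by gene and the share by window are therefore unlike measures. The windows of Lilr4b, the member called in glia, at chr10:51480362-51480661 (plus strand), and of Cd68, at chr11:69666121-69666420 (minus strand), are shown because they held the fewest and the most matches, with both kinds of match in capitals, none overlapping another (RefSeq, GRCm38.p6).
Lilr4b: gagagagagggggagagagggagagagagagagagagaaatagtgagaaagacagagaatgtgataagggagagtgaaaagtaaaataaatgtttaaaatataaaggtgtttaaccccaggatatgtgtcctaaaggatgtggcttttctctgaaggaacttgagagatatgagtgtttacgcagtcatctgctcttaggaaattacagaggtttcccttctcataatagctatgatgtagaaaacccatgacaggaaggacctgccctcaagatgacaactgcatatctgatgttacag
Cd68: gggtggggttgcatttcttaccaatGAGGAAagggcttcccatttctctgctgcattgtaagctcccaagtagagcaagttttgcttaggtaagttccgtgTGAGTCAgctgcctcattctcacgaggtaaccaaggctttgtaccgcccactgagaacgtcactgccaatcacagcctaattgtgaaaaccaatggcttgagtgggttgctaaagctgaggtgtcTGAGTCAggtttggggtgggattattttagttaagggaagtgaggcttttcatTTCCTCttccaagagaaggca
Cd68 held 2 matches of each kind and Lilr4b held 0. A match is a run of letters and not a bound site, and its absence says only that these letters are not in this window.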

How the data were processed

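Nuclear mRNA was sequenced from sorted nuclei of pooled hippocampi (oligo(dT) priming, SMART-Seq v4). The authors trimmed reads with Trim Galore 0.4.3 (per the labels), aligned them to mm10 with Rsubread, and deposited raw counts of uniquely mapping reads per gene from featureCounts on GENCODE. The strand setting is not given in the sources used here, so reads of antisense partners cannot be told apart. The 11 bisulfite samples were not analysed here.

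From the deposited counts, genes without a symbol (105) were left out, filterByExpr (minimum count 10, minimum total 15) kept 40714 genes, and edgeR 4.0.16 (glmQLFit with legacy=TRUE, R 4.3.3, limma 3.58.1) fitted 4 group means with TMM scaling, with 7 residual degrees of freedom (3 with the replicate block). The joint fit was used, although the study analysed the fractions separately, because sham glia had 2 libraries. Genes were called at FDR below 0.25, with p-values adjusted by Benjamini-Hochberg over all genes of each comparison. The p-values without a block measure the spread between pools. Those with the block measure the spread left after the replicate number, on 3 residual degrees of freedom. edgeR moderates each gene's spread toward that of all genes. The very small FDRs with the block rest mostly on this shared spread and not on the few pairs. Counting error is smallest for the deepest libraries, and the number of pools limits the precision.

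Deviations from group means were correlated between libraries of the same replicate number, with r of 0.760 and 0.787 in glia and 0.643, 0.161 and 0.491 in neurons, so the numbers were taken to pair kainate and sham libraries. What the number shares beyond this is not stated in the sources. The paper states that mRNA libraries of both hemispheres were divided between sequencing machines with different read lengths, single or paired. It also states that pools differed in their number of mice. The paper does not name which libraries or pools these were. NeuN+ and NeuN- libraries of 1 pool share their mice. Blocks were fitted as alternatives, as were DESeq2 1.42.0, other filters and scalings, low RNA input and leaving out each library. The code of the fit without a block was tested on simulated data, and that of the block was not.

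The members and all lists were chosen with earlier results of these data known. The text names all members, list genes called for kainate against sham in the fit without a block, and a set of well-known microglia, receptor and marker genes, plus others chosen after their values were seen (Ccl3, Ccl4, Tyro3, Abcg1, S100a8, Pirb, Lilra5, Lilra6, Card9, Malt1, Fcrls, C1qa, C1qb, C1qc, Fn1, Vcan, Chil3, Ly6c2, Gfap, Lamp2, Cst3, Lgmn and other genes called only with the block). Some genes of these lists are not reported here. Exon lengths and coordinates are from a later GENCODE release of GRCm38, the build of mm10.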

Additional observations from a re-analysis of the deposited data

Results flagged for a closer look

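With the replicate number as a block, the kainate effect on 3 members differed between the sorted fractions by edgeR's test of the difference itself, always with the lower value in neurons, where 286 of 40714 genes (0.702%) were called lower with the block and 0 without it. Lilr4b differed by -1.98 on the log2 scale (edgeR FDR 0.00668), with changes of 2.82 in glia and 0.84 in neurons under that block. Lpl differed by -1.57 (edgeR FDR 0.00406), with 1.02 in glia and -0.55 in neurons. Cd14 differed by -1.46 (edgeR FDR 0.104), with 2.29 in glia and 0.83 in neurons. Without the block the difference was -0.68 ± 0.84 for Cd14, -1.78 ± 0.56 for Lpl and -1.71 ± 0.67 for Lilr4b, and for Cd14 it was 0.074 without sham glia replicate 3. None of the 3 was called without the block, and in glia the block rests on the pairs numbered 1 and 3.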

How the results depend on the processing

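For the counts of members called, the 1 member higher in glia became 0 with DESeq2 size factors, no filter on low counts, FDR below 0.05, a separate fit per fraction, low RNA input as covariate, both low-input libraries left out, and without each of 7 libraries. It was 3 with replicates 2 and 3 only, a fit with 1 sham glia library in which calls over all genes were 430 higher, against 38. With the replicate block the members called were 3 higher and 1 lower in glia, 3 higher and 1 lower in neurons, and 3 lower in the difference between neurons and glia, where the fit without it had 0 apart from that 1. Leaving out 1 library gave 0 to 1 members higher in glia. Beyond these calls and that of Cst7 between the fractions, the block changed no call of a member. The count of members lower in NeuN+ nuclei was 8 or 9 under every alternative run, the ninth being Cst7, which was called with the pool block, DESeq2, the stricter CPM filter, genes with an NCBI Gene ID, edgeR's newer method, replicates 2 and 3 only, and without kainate glia replicate 3 or sham glia replicate 1. Apart from the block, whose construction removes differences between replicate numbers, and the settings with fewer samples or another threshold, the cause was not tested. Without sham glia replicate 3 the median of all genes in glia was 0.76, and calls over all genes were 2359 higher, against 38.

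The direction of values that were not called turned as follows, on the log2 scale. In glia, Axl was -0.028 with DESeq2 size factors, -0.028 with DESeq2 and -0.13 with the replicate block, and Cd68 was 0.45 with the block and 0.48 with the input covariate. Without the low-input libraries Cd68 was 2.20, Trem2 0.27, Tyrobp 1.40, Clec7a 0.12 and Apoe 0.81 in glia, and with replicates 2 and 3 only Cd68 was 1.38, Trem2 0.21 and Tyrobp 0.32. In the difference between neurons and glia, Cst7 was 0.0048 over genes with an NCBI Gene ID and 0.044 with edgeR's newer method, Tyrobp -0.24 and Axl 0.10 with the block, and Tyrobp -0.060 with the input covariate. Without the low-input libraries it was -1.34 for Cd68, -0.061 for Trem2, -1.71 for Tyrobp, 0.32 for Cst7 and -1.20 for Apoe, and with replicates 2 and 3 only -0.60 for Cd68, -0.042 for Trem2, -1.03 for Tyrobp and 0.34 for Cst7. Lpl between the fractions was -0.18 with replicates 2 and 3 only.

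Leaving out each library in turn, where a sign changed, gave these ranges. In glia they were -0.45 to 0.91 for Axl, -1.04 to 2.02 for Cd68, -1.31 to 0.32 for Trem2, -1.59 to 1.14 for Tyrobp and -2.66 to 0.51 for Apoe. In neurons they were -0.40 to 0.24 for Axl, -0.0084 to 0.56 for Cst7, -0.32 to 0.84 for Trem2 and -0.83 to 0.079 for Tyrobp. For the difference they were -1.44 to 1.21 for Tyrobp, -0.50 to 0.25 for Cst7, -0.98 to 0.39 for Axl, -1.39 to 0.094 for Clec7a, -1.15 to 1.90 for Cd68, -0.11 to 1.55 for Trem2, -0.90 to 2.22 for Apoe and -2.34 to 0.074 for Cd14. Lpl between the fractions ranged from -0.039 to 0.30.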
